A study of Homo sapiens with 8 samples.

Results

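hsa-miR-26a-5p, hsa-miR-26b-5p and hsa-miR-101-3p, the main strands of the miR-26 and miR-101 families, were taken by name from the human miRNAs on the arrays, 3 of 2006. Their shared trait is a reported repression of EZH2, and no measured value enters the rule that selects them. They were measured in BT474 and SKBR3, established HER2+ breast cancer cell lines that are both sensitive to trastuzumab, an antibody against HER2. Each line received either 6 μg/mL trastuzumab or PBS, the control, for 144 h. The labels give 2 biological replicates to each of the 4 groups, BT474 PBS, BT474 trastuzumab, SKBR3 PBS and SKBR3 trastuzumab. The lines were grown in different media, that of BT474 with insulin, so that line and medium cannot be told apart.

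The file labelled SKBR3 PBS replicate 1 is the same as that of BT474 PBS replicate 1 in all 62344 spots, so 7 distinct arrays were used and SKBR3 PBS kept 1 of them. The trastuzumab arrays occupied row 1 of the slide and the PBS arrays row 2, and treatment and row cannot be told apart. The lines occupied different columns, and line and column cannot be told apart either. Between 201 and 256 miRNAs were detected per array, with the 3 SKBR3 arrays at 201 to 218 and the 4 BT474 arrays at 247 to 256. Of 6 miRNAs typical of epithelial cells, the 4 BT474 arrays detected 6, with a summed signal of 29911 to 39348, and the 3 SKBR3 arrays detected 2 (hsa-miR-200c-3p and hsa-miR-141-3p), with 12719.6 to 17623. Of 5 blood cell miRNAs, 1 (hsa-miR-451a) was detected on 1 BT474 array, and of 6 miRNAs of mesenchymal, endothelial, muscle or liver cells, 1 or 2 were detected on each BT474 array (hsa-miR-126-3p and hsa-miR-1, summed signal 127 and 241 with PBS, 337 and 470 with trastuzumab) and 0 on each SKBR3 array. The part of these miRNAs in the differences between lines or treatments was not tested.

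EZH2 is the catalytic subunit of the Polycomb repressive complex PRC2, which methylates lysine 27 of histone H3 and thereby silences genes. Its level is often raised in aggressive breast cancers. A miRNA represses its targets mainly through pairing of its seed, the bases near its 5′ end, with sites in the 3′ untranslated region of an mRNA, and sites for miR-26 and miR-101 in the EZH2 mRNA have been reported repeatedly. Loss of miR-101 is a known way by which tumours gain EZH2. No mRNA was measured on these arrays, so that the values describe the miRNAs and not EZH2.

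The mature sequences are shown because they decide which members can share targets and how well a probe can tell them apart. They are RefSeq sequences of GRCh38.p14, found for 3 of the 3 members and written 5′ to 3′ with bases 2 to 8, the seed, in capitals.
hsa-miR-26a-5p: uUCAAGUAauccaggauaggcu
hsa-miR-26b-5p: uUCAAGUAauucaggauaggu
hsa-miR-101-3p: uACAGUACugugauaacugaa

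The miR-26 members have the same seed and are identical at 19 of the 21 positions they share. Counted from the 5′ end and from hsa-miR-26a-5p to hsa-miR-26b-5p, the differences are C11U and C21U, and hsa-miR-26a-5p is 1 base longer. How far a probe for one of them also binds the other was not tested. hsa-miR-101-3p has another seed. Other miRNAs of the array begin like a member, and are printed because their values are set beside those of the members below.
hsa-miR-1297: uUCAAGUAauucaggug
hsa-miR-4465: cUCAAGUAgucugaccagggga
hsa-miR-144-3p: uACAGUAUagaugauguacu

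hsa-miR-1297 and hsa-miR-4465 have the miR-26 seed, and hsa-miR-144-3p differs from hsa-miR-101-3p within bases 2 to 8 only by C8U. In GRCh38.p14, hsa-miR-26a-5p comes from 2 hairpins, MIR26A1 at chr3:37969404-37969480 on the plus strand, within the span of CTDSPL, and MIR26A2 at chr12:57824609-57824692 on the minus strand, within that of CTDSP2. The hairpin of hsa-miR-26b-5p, MIR26B, lies at chr2:218402646-218402722 on the plus strand within the span of CTDSP1. The miR-26 hairpins thus lie in genes of one family, which encode small phosphatases of the RNA polymerase II tail. hsa-miR-101-3p comes from MIR101-1 at chr1:65058434-65058508 on the minus strand, within the span of JAK1, and from MIR101-2 at chr9:4850297-4850375 on the plus strand, within that of RCL1. Whether a hairpin falls in an exon or an intron was not analysed here. An array signal of hsa-miR-26a-5p or hsa-miR-101-3p adds up what both of its hairpins give.

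The first question was whether trastuzumab changed the members in BT474. hsa-miR-26a-5p and hsa-miR-26b-5p both rose, the former by 1.59-fold and the latter by 1.19-fold after normalization between arrays. Both changes passed the test, but failed it under several other ways of processing and without certain single arrays. hsa-miR-101-3p was brighter on both trastuzumab arrays than on both PBS arrays, as 32.8% of the tested miRNAs were, and its change did not pass the test. The summed signal, which adds the background-subtracted signals of the probes of a miRNA that the software counts as detected, is a relative brightness and was compared only for the same miRNA between arrays.

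The summed signal of hsa-miR-26a-5p as deposited was 1443 and 1834 in BT474 PBS replicates 1 and 2, and 2983 and 3394 in BT474 trastuzumab replicates 1 and 2. In SKBR3 it was 665 on the PBS array, and 1159.6 and 996 on the trastuzumab arrays. In each line the trastuzumab arrays lay above the PBS arrays, and the 4 BT474 arrays lay above the 3 SKBR3 arrays. Both trastuzumab arrays exceeded every PBS array in this way for 32.8% of the 305 tested miRNAs in BT474 and for 53.4% in SKBR3. On this unnormalized scale the median of all tested miRNAs was itself 0.18 higher with trastuzumab in BT474 and 0.23 higher in SKBR3 (log2).

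For the test, quantile normalization gave each of the 7 arrays the same distribution of summed signals, and log2 was taken with 10 as the lowest value allowed (the floor). hsa-miR-26a-5p then had a log2 signal of 10.39 and 10.46 in BT474 PBS and of 11.22 and 10.97 in BT474 trastuzumab. The groups did not overlap, which held for 28.5% of the tested miRNAs in this direction. The mean was 10.42 ± 0.05 (SD, n = 2) with PBS and 11.09 ± 0.17 (SD, n = 2) with trastuzumab. The log2 change was 0.67 (SE 0.10, 95% interval 0.38 to 0.97), with an adjusted p of 0.0242 in limma after Benjamini-Hochberg adjustment over 305 miRNAs. The call was lost without BT474 PBS replicate 1, whose file 2 labels share (adjusted p 0.103), BT474 PBS replicate 2 (0.0779), SKBR3 trastuzumab replicate 1 (0.0711) or SKBR3 trastuzumab replicate 2 (0.0704), with changes of 0.66, 0.71, 0.66 and 0.68. It was also lost under 7 other ways of processing (adjusted p 0.0599 to 0.447). The change stayed above 0 under all 18 alternatives run, from 0.52 to 0.97. It was 0.67 with a floor of 1, over miRNAs detected on all 7 arrays, with BT474 fitted alone and with a replicate block. These use the same normalized values and could not move it.

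hsa-miR-26b-5p had a summed signal of 1879 and 2438 in BT474 PBS, and of 2922 and 3724 in BT474 trastuzumab. Both trastuzumab arrays were again the brighter pair, as for 32.8% of the tested miRNAs. After normalization the log2 values were 10.89 and 10.89 with PBS, identical because the miRNA held the same rank on both arrays, and 11.17 and 11.13 with trastuzumab. The log2 change was 0.26 (SE 0.05, 95% interval 0.12 to 0.39), with an adjusted p of 0.0335 in limma. Because of the equal ranks, this SE and adjusted p take in no spread between the BT474 PBS replicates. With 75th percentile scaling the change was 0.17 and no longer called (adjusted p 0.144), and the median of all tested miRNAs then moved by -0.19 in BT474. The call was also lost under 7 other ways of processing (adjusted p 0.0680 to 0.708), and without any 1 of the 4 BT474 arrays or the SKBR3 PBS array (adjusted p 0.0574 to 0.0822).

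hsa-miR-101-3p had a summed signal of 119 and 253 in BT474 PBS replicates 1 and 2, and of 435 and 584 in BT474 trastuzumab replicates 1 and 2. Both trastuzumab arrays were thus brighter than both PBS arrays, as for 32.8% of the tested miRNAs. On BT474 PBS replicate 1 the software counted 1 of the 2 probes as detected, so that this sum leaves out a probe signal of 41.5. The normalized log2 values were 6.63 and 7.68 with PBS and 8.43 and 8.53 with trastuzumab, on which scale the PBS replicates stood further apart. The log2 change was 1.33 (SE 1.17, 95% interval -1.98 to 4.63), with an adjusted p of 0.502 in limma. The groups share 1 estimate of the spread per miRNA, and for this miRNA it includes SKBR3 trastuzumab arrays on both sides of detection. Without BT474 PBS replicate 1 the change was 0.81, and with normexp background correction, which keeps values for dim spots, it was 0.71 and called (adjusted p 0.00502).

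Of the 3 members, 2 were therefore called in BT474, both higher, where 24.3% of all tested miRNAs were called (74 of 305) and 13.8% of all tested were higher (42 of 305). The median change of the members was 0.67, which is the value of hsa-miR-26a-5p, and that of all tested miRNAs was 0.00 (log2). The latter is set by the scaling, and was 0.18 with no normalization and -0.19 with 75th percentile scaling. At the thresholds of the study, fold changes above 2 at an unadjusted p under 0.05, none of the 3 members was called in either line, where 12.8% of the tested miRNAs were in BT474 and 9.18% in SKBR3. hsa-miR-101-3p passed these thresholds in BT474 in limma with the deposited log2 values (1.18), the mean of the spot signals (1.15) and all probes summed (1.07), where its adjusted p was 0.447, 0.316 and 0.242. All of the member spots on the arrays were below saturation.

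**Figure D1:**
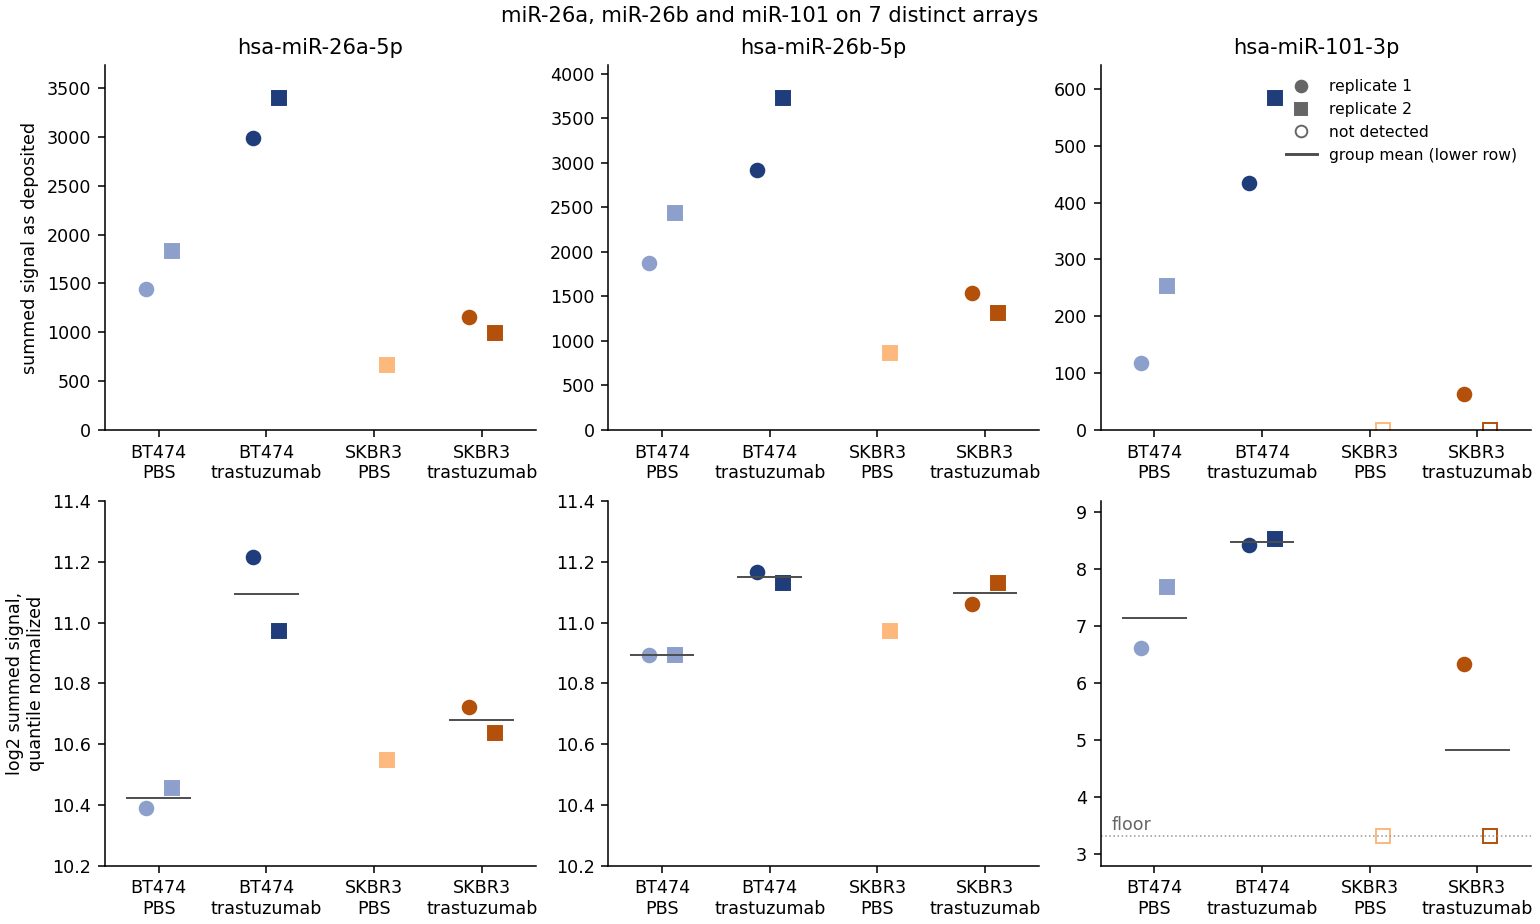
The summed signal as deposited (upper row, arbitrary units) and the log2 signal after quantile normalization (lower row) of each member are plotted by group on the 7 distinct arrays, with a line at the mean of groups of 2 in the lower row and open symbols where the miRNA was not detected. hsa-miR-26a-5p reached 11.22 and 10.97 in BT474 trastuzumab against 10.39 and 10.46 in BT474 PBS, and hsa-miR-101-3p lay at the floor on 2 of the 3 SKBR3 arrays.

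The same comparison in SKBR3 has a single PBS array, whose spread is assumed to be like that of the other groups. No member was called in SKBR3, where 11.8% of the tested miRNAs were (36 of 305). hsa-miR-26a-5p had a normalized log2 signal of 10.55 with PBS and of 10.72 and 10.64 with trastuzumab, a change of 0.13 (SE 0.13, 95% interval -0.23 to 0.49, adjusted p 0.742 in limma). Both trastuzumab arrays lay above the PBS array, by less than the interval can separate from 0. hsa-miR-26b-5p had a log2 signal of 10.97 with PBS and of 11.06 and 11.13 with trastuzumab, a change of 0.13 (SE 0.06, 95% interval -0.04 to 0.29, adjusted p 0.321 in limma). For both miR-26 members the trastuzumab arrays lay above the PBS array, as for 16.7% of the tested miRNAs.

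The SKBR3 values of miR-26 depended on the scaling of the arrays more than the BT474 values did. The SKBR3 PBS array had the lowest sum of detected signals, 246495, against 320578 and 284435 on the trastuzumab arrays. With arrays scaled by the 75th percentile of those miRNAs that all 7 detected, the change was 0.51 for hsa-miR-26a-5p (adjusted p 0.0790) and 0.54 for hsa-miR-26b-5p, which was then called (adjusted p 0.0313). With no normalization the changes were 0.69 and 0.71, neither of them called. The changes were above 0 under all 17 alternatives run for either member in SKBR3. A floor of 1, the miRNAs detected on all 7 arrays and SKBR3 fitted alone use the same normalized values and could not move them.

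hsa-miR-101-3p was near the limit of detection in SKBR3. It was not detected on the PBS array, had a summed signal of 63.5 on trastuzumab replicate 1 and was not detected on trastuzumab replicate 2. A fitted change of 1.51 (SE 1.43, adjusted p 0.735 in limma) rests on the floor and on 1 array, and without SKBR3 trastuzumab replicate 1 it was 0. Both BT474 PBS arrays detected it, and no fold between the lines is given from the summed signals, since the probes counted as not detected still had signals on the SKBR3 PBS array (18.3 and 40.1 in total).

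Whether the lines responded differently was tested with the interaction of line and treatment, the change in BT474 minus the change in SKBR3. It was 0.54 for hsa-miR-26a-5p (SE 0.16, 95% interval 0.07 to 1.00), with an unadjusted p of 0.0333 and an adjusted p of 0.130 in limma. For hsa-miR-26b-5p it was 0.13 (SE 0.07, adjusted p 0.340). For hsa-miR-101-3p it was -0.18 (SE 1.84, adjusted p 0.968), and 0.93 and called with normexp background correction (adjusted p 0.0310). None of the 3 members was called, where 16.1% of the tested miRNAs were (49 of 305). For hsa-miR-26a-5p the difference vanished with 75th percentile scaling (0.00, adjusted p 0.994), which moved the median interaction of all tested miRNAs to -0.39, and it was called without BT474 trastuzumab replicate 2 (0.68, adjusted p 0.0347).

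**Figure D2:**
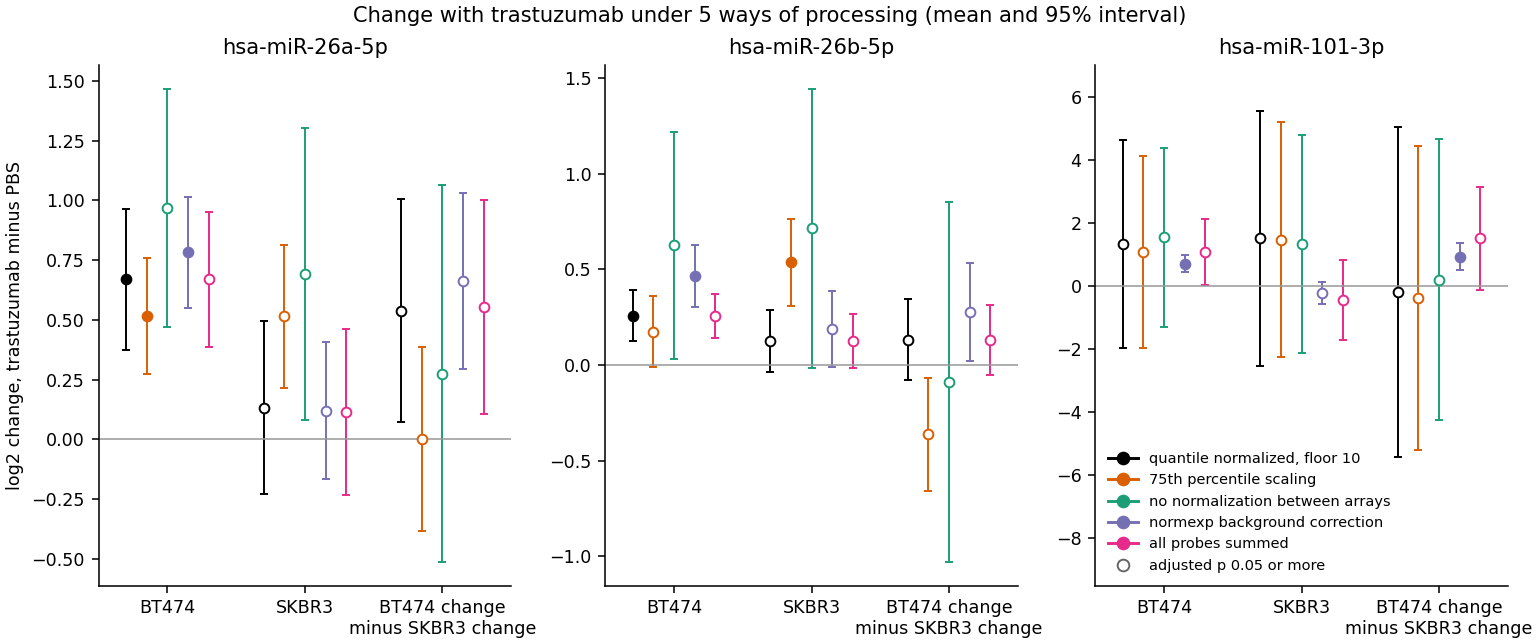
The log2 change with trastuzumab (mean and 95% interval) is plotted for each member in BT474, in SKBR3 and as the difference between the lines, under 5 ways of processing, with filled symbols at an adjusted p under 0.05. For hsa-miR-26a-5p in BT474 the 5 means lie between 0.52 and 0.97, while in SKBR3 they lie between 0.11 and 0.69, and the difference between the lines is 0.00 with 75th percentile scaling.

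The ratio of the miR-26 members within an array does not depend on the scaling between arrays. Its level reflects how the probes bind and was not interpreted, and only its change between arrays was compared. The ratio of the summed signal of hsa-miR-26a-5p to that of hsa-miR-26b-5p was 0.768 and 0.752 in BT474 PBS, and 1.02 and 0.911 in BT474 trastuzumab. In SKBR3 it was 0.767 with PBS, and 0.754 and 0.757 with trastuzumab. The 5 arrays other than BT474 trastuzumab thus stood within 0.752 to 0.768, and both BT474 trastuzumab arrays stood above them. The ratio changed 1.27-fold with trastuzumab in BT474 and 0.985-fold in SKBR3. In SKBR3, 1 of the 4 pairings of a hsa-miR-26a-5p probe with a hsa-miR-26b-5p probe was higher on both trastuzumab arrays than on the PBS array, and 0 of the 4 were lower on both. In BT474, 4 of the 4 pairings gave a ratio that was higher on both BT474 trastuzumab arrays than on both BT474 PBS arrays. On the BT474 arrays the signal of hsa-miR-26a-5p therefore rose more than that of hsa-miR-26b-5p, a difference that was not tested. The 4 pairings share probes and are not independent. The share of other miRNA pairs whose ratio separates the treatments was not counted.

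**Figure D3:**
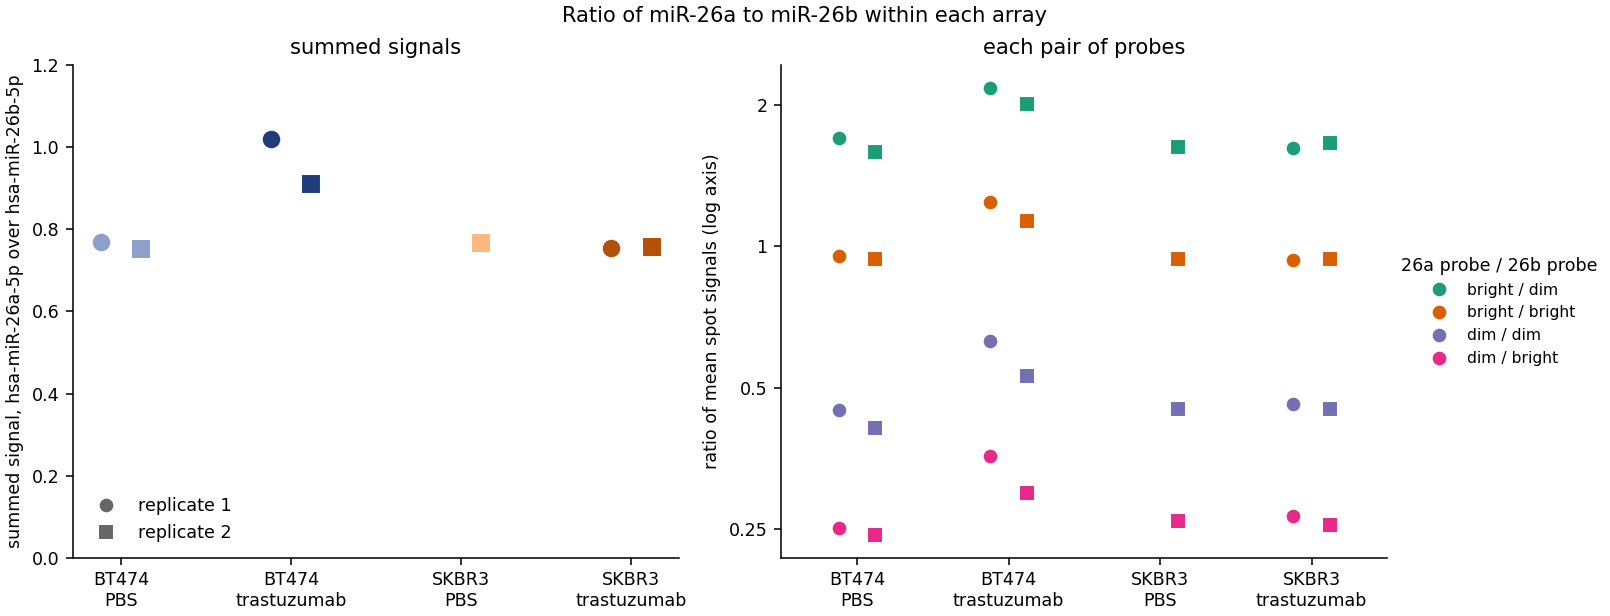
The ratio of hsa-miR-26a-5p to hsa-miR-26b-5p within each array is plotted by group, from the summed signals (left) and from the mean spot signals of each pair of probes (right, log axis). The BT474 trastuzumab arrays lie at 1.02 and 0.911 and the other 5 arrays at 0.752 to 0.768, and the 4 probe pairs show the same separation in BT474.

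Each member was read by 2 probes with 15 spots each. For hsa-miR-26a-5p, 210 of 210 spots were well above background over the 7 arrays, and the coefficient of variation among the spots of a probe ranged from 4.77% to 14.4%. For hsa-miR-26b-5p, 210 of 210 spots were well above background as well, with a range of 4.13% to 15.7%. For hsa-miR-101-3p, 96 of 210 spots were, and the coefficient of variation reached 220% on the dimmest array. The miR-26 signals were thus measured with all their spots, and the hsa-miR-101-3p signals partly from spots near background.

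The brighter probe of hsa-miR-26a-5p had a mean spot signal of 5405 and 6803 in BT474 PBS, and of 10879.6 and 12714 in BT474 trastuzumab. The dimmer probe had 1427 and 1760.3 with PBS, and 3144 and 3351 with trastuzumab. Both probes were thus brighter on both BT474 trastuzumab arrays than on both BT474 PBS arrays. The summed signals as deposited did so for 32.8% of the tested miRNAs, and the share over all probes was not counted. Fitted probe by probe over 4065 probes, the changes of the pair in BT474 were 0.56 and 0.84 with adjusted p from 0.240 in limma, so that neither probe was called. The probes of hsa-miR-26b-5p changed by 0.30 and 0.33 (adjusted p from 0.612).

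The brighter probe of hsa-miR-101-3p had a mean spot signal of 560 (SD 113 over 15 spots) and 880.1 in BT474 PBS, and of 1509.8 and 2001 in BT474 trastuzumab. On the SKBR3 arrays it had 189 with PBS, and 277 and 189 with trastuzumab, where at most 3 of the 15 spots were well above background. The dimmer probe had 14 and 15 spots well above background in BT474 trastuzumab, 1 and 2 in BT474 PBS and 0 on the 3 SKBR3 arrays. Both probes were brighter with trastuzumab in BT474, with changes of 1.15 and 1.23 (adjusted p from 0.334 in limma). In SKBR3 the changes of the probes were -0.66 and 0.10, of opposite sign.

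**Figure D4:**
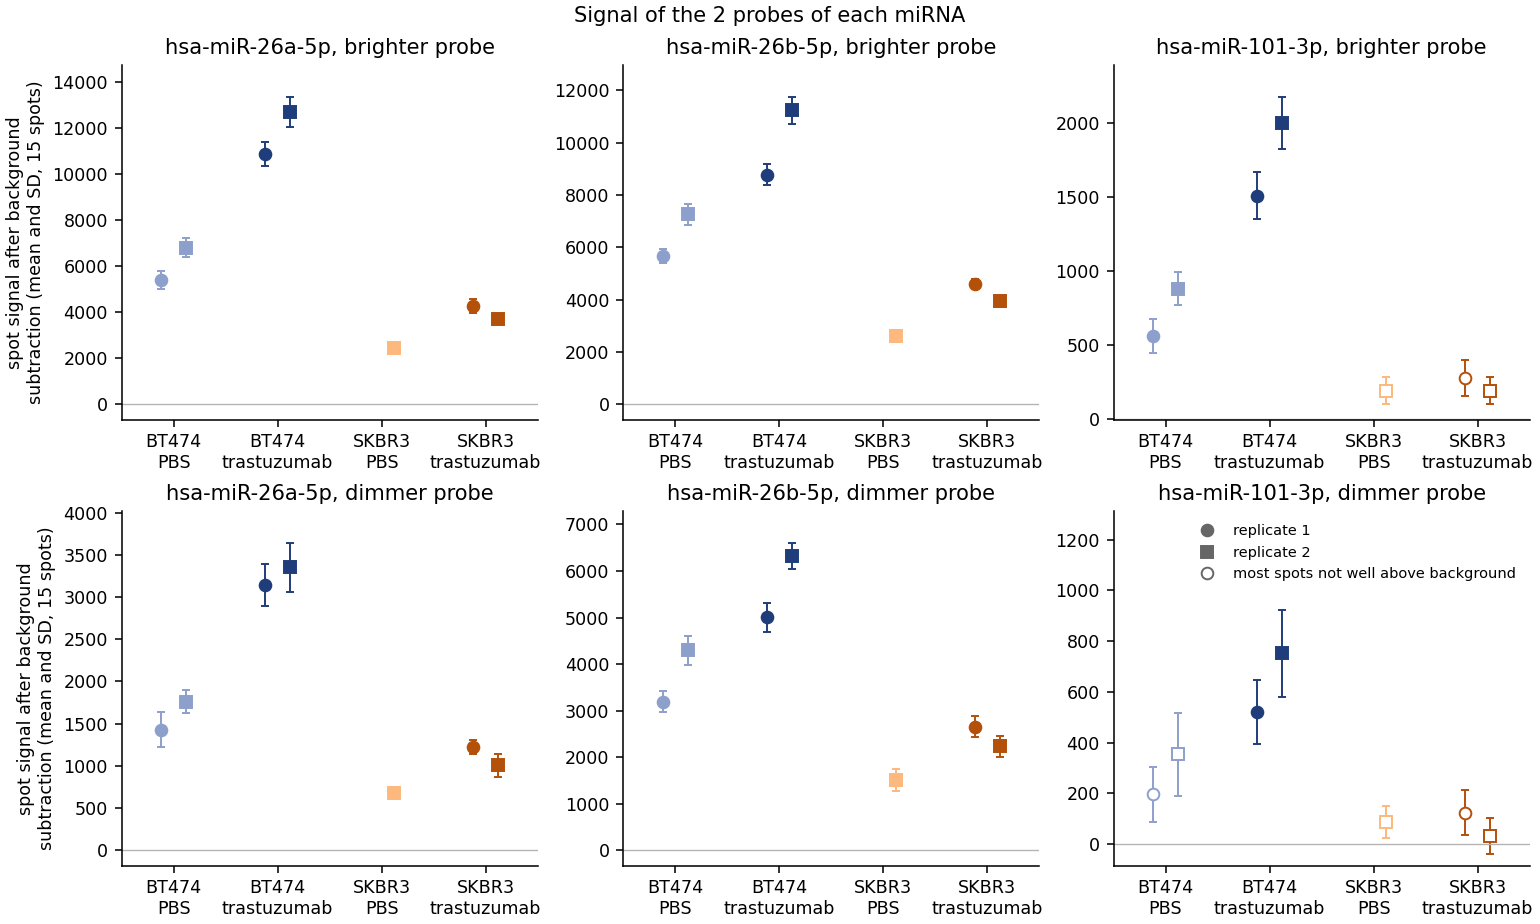
The background-subtracted spot signal (mean and SD over 15 spots, linear axis) of the brighter and the dimmer probe of each member is plotted by group on the 7 distinct arrays, with open symbols where most spots were not well above background. Both probes of each member are higher in BT474 trastuzumab than in BT474 PBS, a direction in which 32.8% of the tested miRNAs separated by summed signal. The dimmer probe of hsa-miR-101-3p has 0 spots well above background on the SKBR3 arrays.

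The lines were compared over both treatments, as BT474 minus SKBR3. hsa-miR-101-3p was called higher in BT474, where 68.5% of the tested miRNAs were called in either direction and 33.4% were higher. Its fitted difference of 3.74 (SE 0.92, adjusted p 0.0269 in limma) depends on the floor and is not a bound. It was 6.23 with a floor of 1 (adjusted p 0.0502), 1.48 with all probes summed and 0.83 with normexp background correction (adjusted p 3.99e-05), and above 0 under all 15 alternatives. The call was lost without any 1 of the 4 BT474 arrays (3.42 to 4.00, adjusted p 0.0712 to 0.0936). On the brighter probe alone the difference was 1.67 (adjusted p 0.0252). In bulk RNA of a culture, fewer cells that make a miRNA and less miRNA per cell cannot be told apart.

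After quantile normalization neither miR-26 member was called between the lines, with differences of 0.15 for hsa-miR-26a-5p (95% interval -0.09 to 0.38, adjusted p 0.194 in limma) and -0.01 for hsa-miR-26b-5p (95% interval -0.12 to 0.09, adjusted p 0.753). This depended on the scaling. With 75th percentile scaling both were called higher in BT474, by 0.52 and 0.35 (adjusted p 0.00415 and 0.00595), and the median of all tested miRNAs moved to 0.27. With no normalization the differences were 1.43 and 1.26, beside a median of 0.86 over all tested miRNAs.

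In the order of its normalized log2 level, hsa-miR-26a-5p was lowest in BT474 PBS (10.42), followed by SKBR3 PBS (10.55), SKBR3 trastuzumab (10.68) and BT474 trastuzumab (11.09). Among the first 3, neighbours did not differ beyond the spread. BT474 trastuzumab was 0.41 above SKBR3 trastuzumab (SE 0.10, adjusted p 0.0310 in limma), in a comparison that called 62.6% of the tested miRNAs. Fitted by probe, this difference was 0.55 and 0.44, and neither probe was called (adjusted p 0.188 and 0.194 in limma). hsa-miR-26b-5p had the same order, at 10.89, 10.97, 11.10 and 11.15, and no neighbours differed beyond the spread (adjusted p 0.321 to 0.390). The order of the PBS groups depended on the scaling, since as deposited both members were brighter on both BT474 PBS arrays than on the SKBR3 PBS array. In the fit by probe, BT474 PBS was also above SKBR3 PBS, by 0.06 and 0.18 for hsa-miR-26a-5p and by 0.11 and 0.15 for hsa-miR-26b-5p. For hsa-miR-101-3p both SKBR3 groups lay lowest, followed by BT474 PBS (7.15 ± 0.75, SD, n = 2) and BT474 trastuzumab (8.48 ± 0.07, SD, n = 2).

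Of the printed miRNAs that resemble a member in sequence, hsa-miR-4465 alone was detected. hsa-miR-4465, which has the miR-26 seed, was detected on the 4 BT474 arrays and on none of the 3 SKBR3 arrays. Its log2 signal was 8.04 and 8.12 in BT474 PBS, and 7.74 and 7.38 in BT474 trastuzumab. Unlike the miR-26 members it was lower on both trastuzumab arrays than on both PBS arrays, by 0.52, which did not pass the test (adjusted p 0.0720 in limma). With 75th percentile scaling its change was -0.73 and called (adjusted p 0.0303), and without BT474 trastuzumab replicate 1 it was -0.72 and called (adjusted p 0.0109). Between the lines it was higher in BT474 by 1.12 with all probes summed (adjusted p 0.00413), which also counts probes below detection. None of the 7 arrays detected hsa-miR-1297 or hsa-miR-144-3p. The other arms of the member hairpins, hsa-miR-26a-1-3p, hsa-miR-26a-2-3p, hsa-miR-26b-3p and hsa-miR-101-5p, were below detection on each array as well, as was hsa-miR-3671, whose hairpin lies 592 bases from MIR101-1.

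A list of 12 further miRNAs that have been reported to repress EZH2 had 6 that were detected on any array. These were hsa-let-7a-5p, hsa-let-7b-5p, hsa-let-7c, hsa-miR-25-3p, hsa-miR-30d-5p and hsa-miR-98-5p, of which the let-7 family and its relative hsa-miR-98-5p are known as repressors of growth genes. In BT474, 1 of the 6 was called with trastuzumab, 1 higher and 0 lower, where 24.3% of all tested were called, 13.8% higher and 10.5% lower. The median change of the 6 was 0.11, and that of all tested miRNAs, which is set by the scaling, was 0.00. The one that rose was hsa-miR-30d-5p, by 0.45 (SE 0.05, adjusted p 0.00825 in limma), from 9.87 ± 0.04 to 10.32 ± 0.03 (SD, n = 2 each). The call was lost with 75th percentile scaling (0.35, adjusted p 0.0567) and under 5 other ways of processing (adjusted p 0.0796 to 0.676). hsa-let-7c had a change of 0.35 in BT474 (adjusted p 0.0747).

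In SKBR3 0 of the 6 were called by limma, with changes from -0.21 to 0.05 and a lowest adjusted p of 0.436. Between the lines 4 of the 6 were called, 4 higher in BT474 and 0 lower, where 68.5% of all tested were called, 33.4% higher and 35.1% lower. hsa-miR-98-5p was 1.70 higher in BT474 (SE 0.08, adjusted p 0.000209), hsa-miR-30d-5p 1.11 higher (SE 0.04, adjusted p 7.29e-05) and hsa-let-7c 0.57 higher (SE 0.08, adjusted p 0.00441). For hsa-miR-30d-5p the normalization gave 8.99 on each SKBR3 array, where the summed signals were 252, 368 and 333. Its SE and adjusted p, also those in BT474, thus take in no spread between SKBR3 replicates. hsa-let-7a-5p was 0.21 higher (adjusted p 0.00541), and with 75th percentile scaling or normexp background correction its difference had the opposite sign, -0.17 and -0.38. Quantile normalization gave it 14.15 on each BT474 array and 13.94 on each SKBR3 array, so its adjusted p measures no spread between its replicates. As deposited its summed signal ran from 17013 to 22848 on the BT474 arrays.

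**Figure D5:**
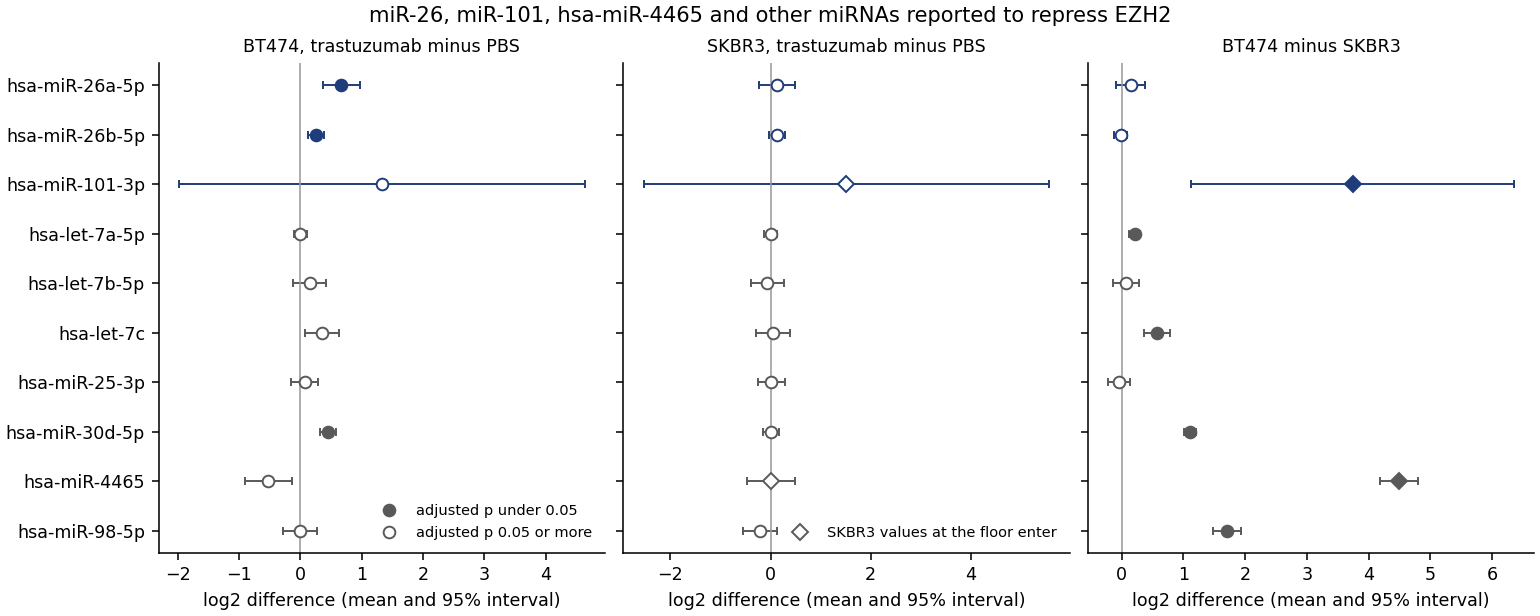
The log2 difference (mean and 95% interval) between trastuzumab and PBS in each line, and between the lines, is plotted for the 3 members (blue), hsa-miR-4465 and the 6 detected miRNAs of the list (grey), with filled symbols at an adjusted p under 0.05 and diamonds where SKBR3 values at the floor enter. In BT474 hsa-miR-26a-5p, hsa-miR-26b-5p and hsa-miR-30d-5p are called higher at 0.67, 0.26 and 0.45, and no miRNA of the plot is called in SKBR3.

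The miRNAs whose pattern was most like that of a member were found among the 171 others that were detected on all 7 arrays, by the root mean square difference of log2 values after each miRNA was centred on its own mean. For hsa-miR-26a-5p these were hsa-miR-30c-5p (0.12), hsa-miR-23b-3p (0.15) and hsa-miR-23a-3p (0.17), where the median of the 171 was 0.59. Their changes in BT474 with trastuzumab were 0.44, 0.36 and 0.26, given as a description with no test, since the same arrays chose them. hsa-miR-26b-5p stood at 0.19 from hsa-miR-26a-5p. For hsa-miR-26b-5p the nearest were hsa-let-7f-5p, hsa-miR-25-3p and hsa-let-7d-5p, each at 0.08, with a median of 0.49. Their changes in BT474 with trastuzumab were 0.09, 0.07 and 0.22, beside 0.26 for hsa-miR-26b-5p, again as a description. For hsa-miR-101-3p, 2 of whose 7 values lie at the floor, the smallest difference was 1.21 (hsa-miR-196a-5p), and the median was 2.24.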

How the data were processed

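Total RNA of BT474 and SKBR3 cells, labelled with Cy3, was measured on single-colour miRNA arrays (miRBase release 19, 1 slide, 1 scan). The authors deposited spot intensities, background subtracted by Agilent Feature Extraction 11.5.1.1 and not normalized between arrays. The files also hold an intensity per miRNA, summed over its detected probes (0.1 where not detected), detection flags and local backgrounds. A table of log2 values, 1 per probe and quantile normalized, was also deposited. How it was centred is not given in the sources used here. Its median was 5.355 in each BT474 column and 5.294 in each SKBR3 column. The shared file thus has different deposited values under its 2 labels, and differences between the lines from these values are not on one scale.

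Groups and replicates were taken from the labels, and p-values measure the spread between these samples. The identical file was counted once, as BT474, which leaves 7 arrays, and this number limits the precision. Summed intensities were quantile normalized, values under 10 set to 10, and log2 was taken. limma 3.58.1 (lmFit, eBayes, R 4.3.3) fitted 4 group means to the 305 miRNAs above the floor on any array, with 3 residual degrees of freedom, and miRNAs were called at a Benjamini-Hochberg adjusted p under 0.05. The fit and the calls were tested on simulated normal values, where 200 of 2006 miRNAs were changed. The normalization, the floor and the choice of tested miRNAs were not part of this test. Its adjustment ran over 2006 miRNAs and not 305, so its shares need not hold for these arrays. At a log2 change of 1 the calls recovered 53% of these in BT474 and 47% in SKBR3. At a log2 change of 2 they recovered 74% and 73.5%. False calls numbered 5 to 11, and a change that is not called may still be present. Python 3.11.15 (pandas 2.3.3, numpy 2.4.6, matplotlib 3.10.9) made the tables and plots.

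The members, lists and tests were chosen with earlier results of these data known. Named miRNAs were the members, the other arms of their hairpins, miRNAs of the same seed, hsa-miR-144-3p, miRNAs of neighbouring hairpins, the list of 12 reported to repress EZH2, and the 3 nearest in pattern to each member. Alternatives were 75th percentile scaling, normexp background correction (offset 50), the mean of the spot signals, the deposited log2 values, a floor of 1, miRNAs detected on all 7 arrays, the 8 arrays as labelled, each line alone, a replicate block, each array left out and the t-test of the methods. No normalization, and a sum over all probes, were chosen after seeing the data.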

Additional observations from a re-analysis of the deposited data

Results flagged for a closer look

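The interaction of line and treatment for hsa-miR-30d-5p was 0.45 (SE 0.07) with an adjusted p of 0.0316 in limma over 305 miRNAs, a call that most other ways of processing did not give. Its log2 signal rose in BT474 from 9.87 to 10.32, and was 8.99 on each of the 3 SKBR3 arrays, where the normalization gave it the same rank. The SE and adjusted p thus take in no spread between SKBR3 replicates. The adjusted p was 0.774 with 75th percentile scaling (0.06), 0.753 with no normalization (0.33), 0.740 with the deposited log2 values (0.46), 0.580 with the 8 arrays as labelled (0.91), 0.209 with the mean of the spot signals (0.50), 0.171 with the replicate block (0.45) and 0.0668 with normexp (0.49). Without SKBR3 trastuzumab replicate 1 it was 0.46 (adjusted p 0.0716).

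The ratio of the summed signals of hsa-miR-26a-5p to hsa-miR-26b-5p within an array moved with opposite sign in the lines, by little in SKBR3. It was higher on both BT474 trastuzumab arrays than on both BT474 PBS arrays, a log2 change of 0.34, and lower on both SKBR3 trastuzumab arrays than on the SKBR3 PBS array, a log2 change of -0.021. The difference was not tested. The summed SKBR3 ratios span 0.754 to 0.767, with the mean of the spot signals the SKBR3 change was 0.0033, and 0 of 4 probe pairs were lower on both SKBR3 trastuzumab arrays. Without BT474 trastuzumab replicate 1 or 2 the BT474 change was 0.26 and 0.43.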

How the results depend on the processing

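In BT474 the changes of the 3 members were above 0 under all alternatives run, some of which use the same normalized values and cannot move a change. The calls of the members and those of the other comparisons depended on the processing. The count of called miRNAs in BT474, in SKBR3, between the lines and for the interaction was 74, 36, 209 and 49. It was 8, 105, 342 and 76 with the mean of the spot signals, 6, 6, 6 and 5 with the 8 arrays as labelled, and 49, 120, 387 and 109 with all probes summed. It was 0, 0 and 0 with the deposited log2 values by limma in BT474, in SKBR3 and for the interaction, with 194, 167 and 175 of 2006 at an unadjusted p under 0.05. With no normalization it was 25, 20 and 25 in BT474, in SKBR3 and for the interaction, with each line alone 41 and 15 in BT474 and SKBR3, with normexp 379 between the lines, and 23 for the interaction over miRNAs detected on all 7 arrays, where fewer were tested. The methods' t-test on the 8 labelled arrays called 5 in BT474 and 2 in SKBR3 after adjustment, and 25 and 9 at the study's thresholds. Calls were 42 higher and 32 lower in BT474, 19 and 17 in SKBR3, 102 and 107 between the lines and 30 and 19 for the interaction. With 75th percentile scaling these were 22 and 53, 26 and 7, 124 and 93, and 16 and 35, and with no normalization 165 and 21 between the lines.

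The deposited values, used below among others, are not on one scale between the lines. For hsa-miR-26a-5p the call in BT474 was lost with the mean of the spot signals (0.67), the deposited log2 values (0.70), the 8 arrays as labelled (0.65), BT474 alone (0.67), no normalization (0.97) and all probes summed (0.67), and a call between the lines was gained with 75th percentile scaling (0.52), the deposited values (1.13) and no normalization (1.43). For hsa-miR-26b-5p the call in BT474 was lost with 75th percentile scaling (0.17), the mean of the spot signals (0.25), the deposited values (0.31), the 8 arrays (0.25), BT474 alone (0.26), no normalization (0.62) and all probes summed (0.25), and a call in SKBR3 was gained with 75th percentile scaling (0.54). Its difference between the lines changed sign with 75th percentile scaling (0.35), normexp (0.23), the deposited values (0.99), the 8 arrays (0.0059) and no normalization (1.26), and was called in all of these but the 8 arrays, and its interaction with 75th percentile scaling (-0.36) and no normalization (-0.090). For hsa-miR-101-3p a call in BT474 was gained with normexp (0.71), and that between the lines was lost with a floor of 1 (6.23) and the 8 arrays (2.91). Its change in SKBR3 was -0.22 with normexp, -0.14 with the mean of the spot signals, -0.090 with the deposited values, -0.13 with the 8 arrays and -0.43 with all probes summed, and its interaction under these was 0.93, 1.29, 1.28, 1.45 and 1.51, and 0.21 with no normalization. The difference of hsa-let-7a-5p between the lines was -0.17 with 75th percentile scaling and -0.38 with normexp, and the SKBR3 change of the miR-26 ratio was 0.0033 with the mean of the spot signals. The causes were not tested.

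With 1 array left out, counts ranged from 44 (without SKBR3 trastuzumab replicate 2) to 80 in BT474, from 16 (without BT474 PBS replicate 1) to 42 in SKBR3, from 187 to 206 between the lines, and from 29 (without SKBR3 trastuzumab replicate 1) to 74 (without BT474 trastuzumab replicate 2) for the interaction. The BT474 count was 49 without SKBR3 trastuzumab replicate 1, and the SKBR3 count 20 without that array. In the same order, hsa-miR-26a-5p ranged from 0.53 to 0.79, 0.085 to 0.18, 0.0785 to 0.21 and 0.40 to 0.68, with a call between the lines without BT474 trastuzumab replicate 2 (adjusted p 0.0345). hsa-miR-26b-5p ranged from 0.23 to 0.27, 0.0854 to 0.16, -0.034 to 0.018 and 0.10 to 0.17, with a line difference above 0 without BT474 trastuzumab replicate 2 (0.018) or SKBR3 trastuzumab replicate 2 (0.011). hsa-miR-101-3p ranged from 0.81 to 1.88, 0 to 3.13, 3.02 to 4.56 and -1.80 to 1.33, with an interaction of 0.42 without BT474 PBS replicate 2 and of 1.33 without SKBR3 trastuzumab replicate 1, which also set its SKBR3 change to 0. The SKBR3, line and interaction comparisons were not run without the SKBR3 PBS array, since no PBS array would be left.

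With the replicate number as a block, limma called 0 miRNAs in BT474 (83 at an unadjusted p under 0.05), 10 in SKBR3, 111 between the lines and 11 for the interaction. Of the members, hsa-miR-26a-5p (0.67, adjusted p 0.195) and hsa-miR-26b-5p (0.26, not called) lost their call in BT474, and hsa-miR-101-3p that between the lines (1.18), where hsa-miR-26b-5p stood at 0.048. The hsa-miR-101-3p change was 0 in SKBR3 and its interaction 1.33. The deviations of the BT474 samples with number 1 correlated at 0.297 over 173 miRNAs, and with 2 pairs and no shared batch in the labels the samples share only a number. A block in SKBR3 alone could not be fitted. In the joint fit the block reduces each SKBR3 change to trastuzumab replicate 2 against the PBS array, and only the BT474 arrays give a spread. The SKBR3, line and interaction counts of this fit rest on that spread. The dim signal of hsa-miR-101-3p limits its comparisons in SKBR3.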
